A study of Arabidopsis thaliana with 4 samples.

Results

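The regions described here are the several-summit peaks of a TCP4 chromatin immunoprecipitation (ChIP-seq) peak list from Arabidopsis thaliana. A peak caller gives each enriched stretch of the genome a number, and where it finds more than 1 local maximum it lists each maximum, or summit, under that number with a letter. All rows whose peak number occurs in 2 or more rows were taken, which gave 2340 of the 7470 summits in the list, in 1090 of its 6220 numbered peaks. The other 5130 summits stood alone in their peak. The regions were thus selected on the pileup profile of these same libraries, through the number of summits the caller found in each stretch, so the fold, pileup and q values below describe the peaks and were not tested.

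The study sought targets of TCP4 in seedlings, and its title names SAUR16, SAUR50 and PIF3 beside TCP4. Libraries were made with an anti-Myc antibody from seedlings labelled mTCP4 with the genotype TCP4 overexpression and from wild type (Col). An input library without antibody came from each genotype. The peak names in the list read mTCP4 against Col. All seedlings were kept at 4 °C for 3 days, given 3 to 4 h of white light and then grown in darkness for 4 days. The promoter and the tag of the TCP4 transgene, and the number of lines, are not stated in the labels. Each group held 1 library, so no value here has a replicate error, and intervals cover the counting of fragments only. Library totals were not analysed here. The number of fragments at a summit ran from 43 to 310 in several-summit peaks and from 43 to 355 in single-summit peaks.

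TCP4 is a member of the CIN branch of the TCP family, plant transcription factors that bind short GC-rich elements as dimers. CIN-type TCPs slow cell division and promote differentiation in leaves, and in cotyledons they act with auxin-related growth genes. Transcription factor binding regions often hold several elements in a row, and a ChIP fragment is longer than an element, so nearby bound sites can appear as 1 broad peak with several summits. The genome sequence was not used here, and summits are therefore given by position and by the genes around them.

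Most several-summit peaks were pairs. There were 962 peaks with 2 summits, 102 with 3, 22 with 4, 3 with 5 and 1 with 7. Chromosomes differed little, with 17.0, 18.6, 17.6, 16.9 and 17.7% of the numbered peaks holding several summits from chromosome 1 to chromosome 5. Several-summit peaks stood a little closer to other peaks than single-summit peaks did. The median distance to the next numbered peak was 2474 bp from several-summit peaks and 3024 bp from single-summit peaks. Distances were taken from the outermost summits, so a several-summit peak reaches nearer to its neighbours in part by construction. Another peak lay within 1000 bp of 274 of the 1090 several-summit peaks (25.1%) and of 1010 of the 5130 single-summit peaks (19.7%).

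The summits listed under 1 peak number lay about 200 bp apart. This spacing also depends on which maxima the caller split and which it put under 1 number. Over the 1250 pairs of neighbouring summits the median spacing was 217 bp, the middle 50% ran from 170 to 331.8 bp, and the extremes were 3 and 1179 bp. Spacings of 150 to 250 bp made up 573 of these pairs (45.8%), spacings of 250 to 500 bp 320 pairs (25.6%), and spacings of 500 bp or more 159 pairs (12.7%). In peaks with 3 or more summits the median spacing was 283 bp, against 206.5 bp in pairs. The distance between the outermost summits of a peak reached 500 bp in 211 peaks and 1000 bp in 27.

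**Figure D1:**
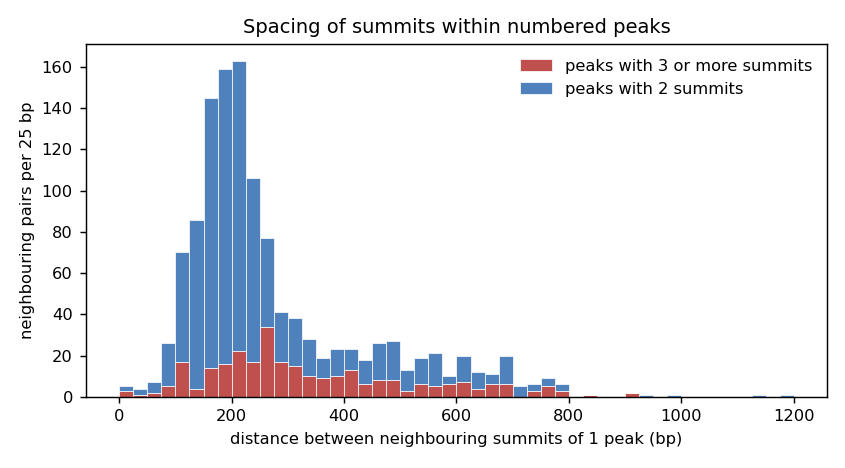
Distances between neighbouring summits of the same numbered peak (x axis, bp) against the number of neighbouring pairs per 25 bp (y axis), stacked for peaks with 3 or more summits and peaks with 2 summits. The fullest bin, from 200 to 225 bp, held 163 pairs, and a thinner run of spacings reached about 800 bp.

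Fold enrichment, the linear ratio of the pileup at a summit to the control level there, was lower at summits of several-summit peaks than at lone summits. Its median was 3.30 in several-summit peaks and 3.51 in single-summit peaks. The pileup, in scaled fragments, had a median of 58.2 in several-summit peaks and 67.1 in single-summit peaks, and the control level one of 16 in several-summit peaks and 17 in single-summit peaks. The control level stood at its lowest, about 12.9, at 20% of summits of several-summit peaks and 17.5% of lone summits. Of the highest summits of several-summit peaks 23.2% had this level, where fold follows the pileup alone. Folds above 10 occurred at 11 summits of several-summit peaks (0.470%) and at 67 lone summits (1.31%). When each peak was represented by its highest summit, the order of the medians turned: the median fold was 3.71 for the highest summits of several-summit peaks and 3.51 for single-summit peaks. Folds above 10 occurred at 1.01% of these highest summits, which was still below the 1.31% of lone summits. Taking the highest of several values raises both the median and this share by construction. The remaining 1250 summits had a median fold of 2.96. At the edge of the rule, the median fold was 3.22 over the 1924 summits of peaks with exactly 2 summits and 3.51 over the single-summit peaks just outside it. It was 3.62 over the 416 summits of peaks with 3 or more.

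**Figure D2:**
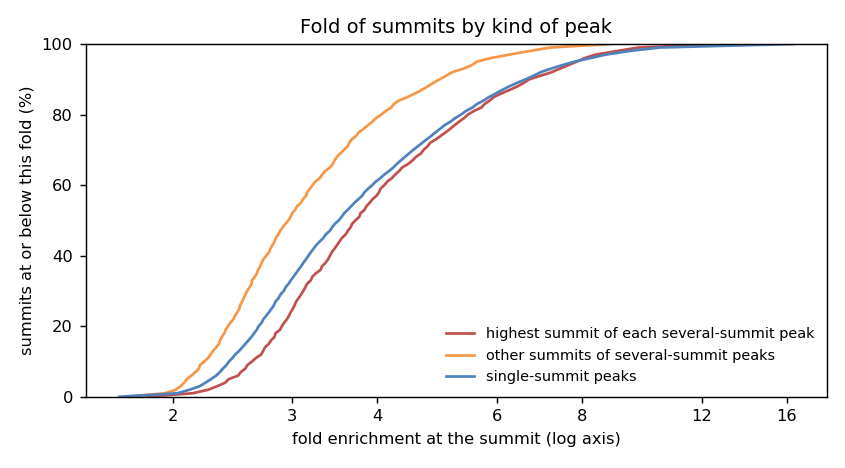
Share of summits (y axis, %) at or below a given fold enrichment (x axis, log scale) for the highest summit of each several-summit peak, the other summits of several-summit peaks, and single-summit peaks. The curve of the other summits lies to the left, with a median of 2.96, and those of the highest summits and of the single-summit peaks run close together, with medians of 3.71 and 3.51.

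Within a pair the folds of the 2 summits mostly had overlapping 95% Poisson intervals, and in peaks with 3 or more summits the highest and the lowest mostly did not. The intervals were separate in 144 of 962 pairs (15%) and in 74 of 128 peaks with 3 or more summits (57.8%). The median ratio of the highest to the lowest fold was 1.16 in pairs and 1.59 in peaks with 3 or more summits. Taking the highest and the lowest of more summits raises both this ratio and the share of separate intervals by construction. Peaks with 3 or more summits were also longer, with a median span of 659.5 bp against 206.5 bp in pairs. Over all several-summit peaks this ratio had a median of 1.18, with a middle 50% from 1.08 to 1.42, and it was below 1.1 in 339 peaks. In 872 of the 1090 peaks the interval of the highest summit overlapped that of the lowest, and in 218 (20.0%) it did not. Separate intervals were more frequent between distant neighbours. A fragment can cover 2 nearby summits, so their counts are not independent and close folds at short spacing are partly built in. Among neighbouring summits under 150 bp apart the intervals were separate in 8 of 198 pairs (4.04%), and at 150 to 250 bp in 19 of 573 (3.32%). At 250 to 500 bp they were separate in 99 of 320 pairs (30.9%), and at 500 bp or more in 98 of 159 (61.6%). The median fold ratio of neighbours over these 4 ranges was 1.10, 1.14, 1.33 and 1.63. A ratio of 2 or more was found in 95 peaks and a ratio of 3 or more in 21. The ratio of the highest to the lowest pileup of a peak had a median of 1.12. Fold also depends on the control level at each summit, which the intervals hold fixed, so separate intervals need not mean unlike pileups.

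The peak with the most summits lay on chromosome 5 between DEAR2 and AT5G67200. DEAR2 encodes an AP2-type protein of the DREB group. Its 7 summits ran over 1742 bp from position 26811280 to 26813022 (build TAIR10, as are all positions here), outside both genes. The first 3, nearest to DEAR2, had folds of 2.78, 4.07 and 3.97. The next, at 26812350 and 26812465, were the highest with folds of 6.69 (5.66 to 7.87) and 7.60 (6.42 to 8.94), 1320 and 1205 bp from the lower-coordinate end of AT5G67200. The last 2 had folds of 4.01 and 4.26. The interval of the highest summit was separate from those of the first 3 and the last 2 and overlapped that of its neighbour 115 bp away.

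The 3 peaks with 5 summits had different shapes. At AT5G25280 on chromosome 5 the summits covered 1953 bp, the longest span of the list. Of its summits 3 lay inside the gene with folds of 2.41, 6.88 and 6.39, 1 lay 7 bp beyond its higher-coordinate limit and had 9.20 (7.94 to 10.6), and the last lay 916 bp outside with a fold of 8.24. At IAA16 on chromosome 3, an Aux/IAA repressor of auxin response, 2 summits inside the gene had folds of 2.34 and 2.46. Outside its higher-coordinate end followed summits at 204 and 372 bp with folds of 4.26 (3.52 to 5.12) and 4.01 (3.32 to 4.81). The last summit of this peak, with a fold of 4.47, was nearest to RALFL21, a gene of the RALF family of signalling peptides, at 325 bp. Between AT5G67290 and MYBR1 (also named MYB44, a MYB factor of abscisic acid and stress responses) the first summit had a fold of 5.91 (4.94 to 7.02). The other 4 summits, all nearest to MYBR1, stayed between 2.83 and 3.35.

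Of the peaks with 4 summits, the 4 with the highest folds lay at BRG3, OFP15, AT1G21060 and AT4G08850. BRG3 encodes a relative of the BOI ubiquitin ligase. Its peak on chromosome 3 rose in the middle, with folds of 3.46, 11.7 (10.2 to 13.3), 8.86 (7.69 to 10.2) and 3.15 from 2842 to 959 bp outside the gene. OFP15 is a member of the OVATE family of repressor proteins. Its summits, 1331 to 2720 bp beyond the higher-coordinate end of the gene, had folds of 4.47, 3.20, 9.29 and 8.72. At AT1G21060 the 3 summits outside the gene had folds of 7.16, 8.42 and 7.29, and the summit inside it had 3.01 (2.30 to 3.86). At AT4G08850 the summit inside the gene had a fold of 5.42 and those outside 3.30, 8.12 and 8.22. In each of these 4 peaks the highest and the lowest summit had separate intervals.

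**Figure D3:**
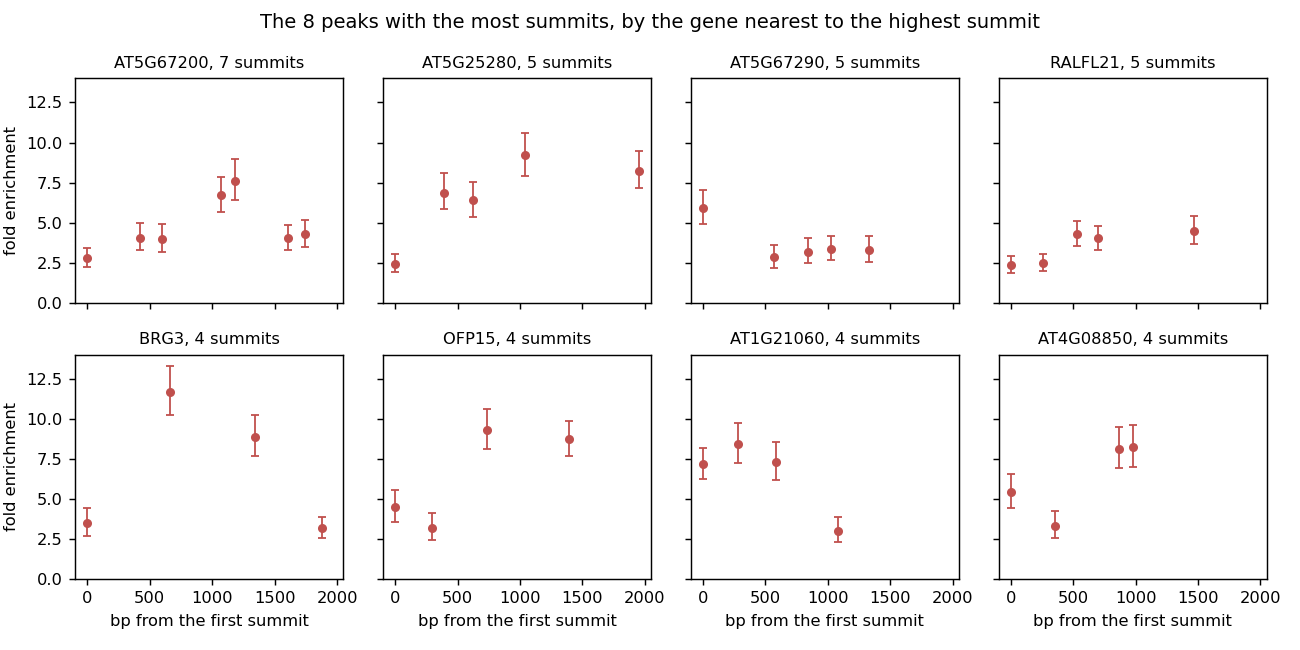
Fold enrichment (y axis) of every summit in the 8 peaks with the most summits, against the distance from the first summit of that peak (x axis, bp). Points are the deposited folds, bars are 95% Poisson intervals of fragment counting, and each panel is named by the gene nearest to the highest summit. Folds within a peak differ by up to 3.81 times, at AT5G25280, and neighbouring summits near each other lie close in fold. Nearby summits can share fragments, so this closeness is partly built in.

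The 12 several-summit peaks with the highest folds lay near genes of several kinds. Control levels at their highest summits ran from 12.9, the lowest of the list, to 18, and a low control raises the fold. On chromosome 5, 2 of them lay side by side before BEL1, a homeobox gene of ovule development. A peak of 3 summits between AT5G41401 and BEL1 had folds of 2.98, 3.18 and 13.1 (11.6 to 14.7), the last at position 16575742 and the highest of all summits in several-summit peaks. The next peak began 966 bp farther on with summits of 4.87 (4.22 to 5.60) and 11.9 (10.4 to 13.6), 3228 and 2682 bp from BEL1. The pileups of these 2 summits were 145.2 and 165.8, and the control level was 29 and 13, so their folds differed mostly through the control. A further peak with 3 summits, at folds of 2.37, 2.66 and 3.02, lay at the other end of the gene. KNAT3, a KNOTTED1-like homeobox gene, was nearest to a summit of 11.4 (9.88 to 13.0) at 5002 bp. The other summits of that peak, nearest to AT5G25210, had folds of 2.23 and 2.61, a highest-to-lowest ratio of 5.10 and the largest found. Part of this ratio came through the control level, which was 12.9 at the highest summit and 18 at both others. The pileups were 157 at the highest summit and 41.3 and 48.6 at the others.

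At ICK1, ZFP8, VND7 and JAZ1 a high summit stood beside lower ones with separate intervals. ICK1, also named KRP1, an inhibitor of cyclin-dependent kinases, had a summit of 11.7 (10.2 to 13.4) at 461 bp outside its lower-coordinate end. The summit before it, nearest to NAPRT2, had a fold of 3.11 (2.49 to 3.84), and the summit 24 bp inside ICK1 had 4.18 (3.32 to 5.20). In the gap before ZFP8, a zinc finger gene of trichome development, a summit of 12.2 (10.8 to 13.7) was nearest to AT2G41930. The next 2 summits, nearest to ZFP8, had folds of 5.58 and 4.94. VND7, the NAC master regulator of xylem vessel formation, held all 3 summits of its peak inside the gene. Their folds were 4.995 and 5.58 at 470 and 661 bp from the lower-coordinate end and 10.02 (8.65 to 11.5) at 1127 bp. JAZ1, a repressor of jasmonate response, had a fold of 10.4 (9.08 to 11.9) at 697 bp, against 3.29 (2.58 to 4.14) at the other summit, which was nearest to AT1G19170.

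Between NIT1 and NIT3, neighbouring nitrilase genes, both summits were high, with folds of 10.6 (9.14 to 12.1) and 8.07 (6.84 to 9.45). They lay 1644 bp from NIT1 and 1642 bp from NIT3 and had overlapping intervals. The highest summits at AT2G46520, AT4G36860 and AT3G26510 had folds of 10.95, 10.6 and 9.65, beside lowest summits of 3.21, 3.09 and 3.51. CMPG2, a U-box ubiquitin ligase gene, had a summit inside the gene with a fold of 1.99 (1.54 to 2.52) and summits of 2.82 and 7.87 (6.71 to 9.18) outside it. RGF9 (a root growth factor peptide, also GOLVEN 2) and LBD37 (a LOB-domain factor of nitrogen response) belonged to long peaks of 1793 and 1753 bp. The first had folds of 6.57 (5.59 to 7.66), 5.11, 6.10 and 3.94 (3.10 to 4.93), so its highest and lowest summit had separate intervals. In the second the highest fold, 5.89 (4.92 to 7.01), was nearest to LBD37 at 833 bp, and the others were 3.59, 2.54 and 3.45. The summit of 3.59 had the highest pileup of that peak, 128.2 at a control level of 35. The summit of 5.89 had a pileup of 92.1 at a control level of 14.8.

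Most summits of several-summit peaks lay at gene ends, with a flatter profile than that of lone summits. The window used runs from 1000 bp outside to 200 bp inside either end of a protein-coding gene, since the gene table gives no strand. It held 1396 of 2340 summits of several-summit peaks (59.7%, exact 95% interval 57.6 to 61.7%) and 3254 of 5130 lone summits (63.4%, 62.1 to 64.8%). Summits of 1 peak are not independent, so these intervals are too narrow, and the difference was not tested. The part of the genome inside such windows was not measured, so neither share can be read as a gathering at gene ends. The first 100 bp outside a gene end held 7.35% of the summits of several-summit peaks and 9.51% of lone summits. Gene bodies held 28.3% of the summits of several-summit peaks and 30.2% of lone summits. Of the summits of several-summit peaks 28.0% were farther than 1000 bp from the nearest protein-coding gene, and of lone summits 24.2%.

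Windows of 2 or more genes at once held 16.3% (14.8 to 17.8%) of the summits of several-summit peaks and 21.8% (20.7 to 22.9%) of lone summits. The intergenic gap around a summit outside genes had a median of 3534 bp for several-summit peaks and 3197 bp for single-summit peaks. Fold differs with position and between the kinds of peak, so shares were also taken within 4 equal classes of all summits by fold. From the lowest to the highest class, 64.5, 60.2, 55.5 and 57.4% of summits of several-summit peaks lay at gene ends, against 69.4, 64.0, 63.1 and 58.0% of lone summits. Shares in windows of 2 or more genes were 18.3, 18.0, 13.5 and 14.6% in several-summit peaks, against 26.0, 20.5, 21.9 and 19.1% for lone summits. Shares for several-summit peaks were below those for lone summits in each class on both counts, by the least at gene ends in the highest class. Inside long non-coding RNA genes and outside protein-coding ones lay 62 summits of several-summit peaks (2.65%) and 132 lone summits (2.57%).

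**Figure D4:**
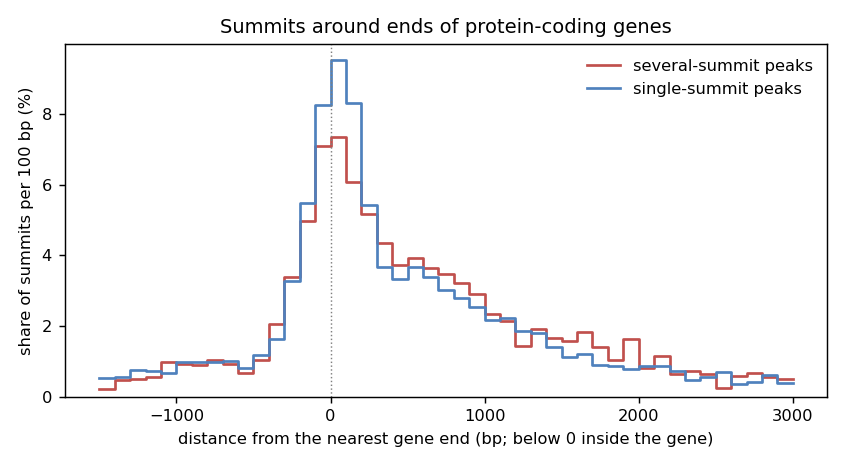
Share of summits per 100 bp (y axis, %) by distance from the nearest end of the nearest protein-coding gene (x axis, bp, negative inside the gene) for several-summit and single-summit peaks. Both profiles peak in the first 100 bp outside the gene, at 7.35% in several-summit peaks and 9.51% in single-summit peaks. Fewer positions of the genome lie far from a gene end, so such profiles fall with distance in part by construction.

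Most several-summit peaks lay within 1 gene or 1 gap. Their median span was 216 bp, and the gap around summits outside genes had a median of 3534 bp. Such layouts are thus likely from the short span alone, and they were not compared with other stretches of this length. All summits lay outside protein-coding genes, in 1 gap and nearest to the same gene, in 557 of the 1090 peaks (51.1%). In 119 peaks (10.9%) the summits shared a gap but some were nearest to one flanking gene and some to the other, with a median span of 318 bp, against 212 bp where all were nearest to the same gene. All summits lay inside 1 gene in 208 peaks (19.1%), inside different genes in 16 (1.47%), and on both sides of a gene end in 190 (17.4%). A whole protein-coding gene never lay between the summits where all were outside genes. Counted by nearest protein-coding gene alone, 158 peaks (14.5%) had summits at different genes, and none had 3.

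In intergenic peaks the highest summit was the nearest to the gene about as often as not. Where all summits lay outside genes with the same nearest gene, the highest was the one nearest to the gene in 270 of 557 peaks (48.5%). Among the 94 of these with separate intervals of the highest and lowest summit, it was the nearest in 46. Where 1 summit of a pair lay inside and 1 outside a gene, the outside one was higher in fold in 90 of 151 peaks (59.6%, exact 95% interval 51.3 to 67.5%). It was also the higher in 26 of the 36 with separate intervals. All these ranks are by fold, which also depends on the control level at each summit. Pileups inside and outside genes were not compared, so the counts do not show a stronger signal outside genes.

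In all, 966 of 27444 protein-coding nuclear genes (3.52%) had a summit of a several-summit peak in their windows. This was 20.2% of the 4778 genes with any summit there. Windows of 724 genes (2.64%) held 2 or more summits of 1 numbered peak. The number of such summits per gene was 1 for 239 genes, 2 for 645, 3 for 66, 4 for 14 and 5 for 2. Over these genes the median of the highest fold in the windows was 3.57. The shares of 23 gene lists below are given both of all genes of a list, beside 3.52%, and of its genes with any summit, beside 20.2%, and no list was tested. The share of all genes was above 3.52% in 16 lists. In 11 of these the share of genes with any summit was above 20.2% too, and in the other 5 it was not.

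Of the genes in the title only PIF3 carried summits of a several-summit peak in its windows. PIF3, a bHLH factor that holds back light responses in darkness, had its pair on chromosome 1 outside the lower-coordinate end. The summit at 3075163, 605 bp out, had a fold of 3.65 (2.85 to 4.61), and the one at 3075685, 83 bp out, had 4.63 (3.90 to 5.47). The intervals overlapped, and the control level was 13.0 at the outer and 21.0 at the inner summit. TCP4, SAUR16 and SAUR50 each had 1 lone summit in their windows. The nearest summits of several-summit peaks lay 15554, 27605 and 3633 bp from these 3 genes.

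The phytochrome-interacting factors had 3 of 7 genes with such a summit (42.9%, exact 95% interval 9.90 to 81.6%). This was 60% of the 5 with any summit (14.7 to 94.7%), an interval that holds the 20.2% of all such genes. Besides PIF3 these were PIF4 and PIF5 (listed as PIL6), close relatives that promote elongation growth. PIF4 had a fold of 6.53 (5.57 to 7.62) at 452 bp outside its lower-coordinate end and of 3.15 (2.56 to 3.83) at 323 bp inside. PIF5 had a fold of 6.33 (5.53 to 7.20) at 465 bp outside its higher-coordinate end and of 2.14 (1.80 to 2.53) at 228 bp inside. The windows reach 200 bp inside a gene, so those of PIF4 and PIF5 held only the outside summit of each pair. At both genes the outside summit was the higher in fold, with separate intervals, which hold the control level fixed. At PIF4 the pileup was 117.9 outside and 71.5 inside, with control levels of 17.2 and 22. At PIF5 the pileup was 167.3 outside and 99.5 inside, with control levels of 25.6 and 46.

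B-box genes, zinc finger factors of which several act in light signalling, had 8 of 30 with such a summit (26.7%, exact 95% interval 12.3 to 45.9%), which was 44.4% of the 18 with any. BBX14 had folds of 3.79 (3.23 to 4.41) and 7.23 (6.25 to 8.33) at summits 634 bp apart, the second nearest to AT1G68526. The pileups there were 120.1 and 140, with control levels of 31 and 18.5. BBX6, also named COL5, had folds of 3.65 and 2.81, and BBX19 of 3.22 and 3.61, with overlapping intervals in each pair. BBX9 and BBX30 shared a summit of 2.54. Of the clock genes 0 of 16 had such a summit (exact 95% interval 0 to 20.6%), and 7 had a summit of some kind. Among these 7 the interval of the share was 0 to 41%. Both intervals hold the shares over all genes, 3.52 and 20.2%.

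Shares of the auxin lists rested on few genes with a summit. Among genes with any summit, their exact binomial intervals overlapped, and each held the 20.2% of all such genes. They included 0.105 to 21.1% for the SAUR family and 8.39 to 58.1% for the Aux/IAA repressors. Of all genes, the interval of the Aux/IAA repressors (3.89 to 31.7%) lay above 3.52%, and those of the other auxin lists held it. Of the SAUR family, small auxin-induced RNAs of cell expansion, 1 of 80 genes had a summit of a several-summit peak (1.25%), or 4.17% of the 24 with a summit of any kind. It was SAUR59, with folds of 3.87 and 4.08 at 111 bp from each other. Aux/IAA repressors had 4 of 29 (13.8%, and 28.6% of the 14 with any summit), IAA16, IAA9, IAA3 (listed as SHY2) and IAA2. IAA9 had folds of 2.73 outside and 2.13 inside the gene, and the 2 summits at IAA3 had folds of 1.94 and 2.32. Auxin synthesis, transport and perception had 3 of 27 (11.1%), or 27.3% of the 11 with any summit. YUC6 and YUC2, of auxin synthesis, had pairs of 5.91 and 6.65 and of 4.64 and 3.30, and the efflux carrier PIN4 had 3.35 and 4.65, all with overlapping intervals within a pair. Auxin response factors had 1 of 25 (4.00%, and 14.3% of the 7 with any summit), ARF2, whose pair of 2.19 and 2.19 lay inside the neighbouring gene HSFB2A.

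Among TCP genes 4 of 22 (18.2%) had such a summit, or 36.4% of the 11 with any. TCP23 had folds of 7.43 (6.26 to 8.76) at 638 bp and 2.66 (2.0 to 3.46) at 287 bp outside its higher-coordinate end. TCP8 had 4.14 and 5.10. TCP17, of the CIN type like TCP4, had 3.83 (3.01 to 4.81) at 592 bp. The other summit of that peak was nearest to AT5G08060 and had 3.09. TCP9 was the fourth, with 2.64 in its window.

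Hormone lists other than auxin ranged from 9.09 to 20.8% of all their genes and from 15.4 to 42.9% of their genes with any summit. Among the latter the exact binomial intervals overlapped, from 1.92 to 45.4% for ethylene to 9.9 to 81.6% for gibberellin genes. Each held the 20.2% of all such genes. Of all genes, the intervals of jasmonate (7.13 to 42.2%) and gibberellin genes (3.58 to 41.4%) lay above 3.52%. Those of ethylene and brassinosteroid genes held it. Jasmonate genes had 5 of 24 (20.8%, and 31.2% of the 16 with any summit), the repressors JAZ3, JAZ2 (listed as TIFY10B), JAZ6, JAZ1 and JAZ9 (listed as TIFY7). JAZ3 had an even pair of 5.84 and 5.15, 206 bp apart. JAZ2 shared a peak of 4 summits with FAB1, with folds of 2.57, 2.83, 5.14 (4.19 to 6.24) and 2.68. Gibberellin genes had 3 of 18 (16.7%), or 42.9% of the 7 with any summit. The receptor gene GID1B had a several-summit peak at each end, with folds of 2.85 and 4.74 at the lower-coordinate end and of 5.79 (4.76 to 6.97) and 3.14 (2.40 to 4.04) beyond the higher-coordinate end. GA2OX6, a gibberellin-inactivating oxidase, had pairs of 3.70 and 3.21 and of 3.21 and 2.86 on the same side, and the DELLA gene RGL3 had 4.08 and 3.85.

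Ethylene genes had 2 of 22 (9.09%, and 15.4% of the 13 with any summit), both synthases of the ethylene precursor. ACS8 had 3 summits of 2.55 (1.89 to 3.36), 5.59 (4.64 to 6.67) and 5.29, and ACS5 had 4.89 and 4.95. Brassinosteroid genes had 2 of 15 (13.3%), or 28.6% of the 7 with any summit. The window of the receptor gene BRI1 held 1 summit each of 2 such peaks, the higher with a fold of 3.47 and nearest to PLS, and the kinase gene BIN2 held 1.71 in its window.

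Lists of growth and cell wall genes were small in number. Growth-regulating factors and coactivators had 1 of 12 (8.33%, and 25% of the 4 with any summit), the coactivator AN3, with 3.62 and 3.21 outside its lower-coordinate end. KNOX and BEL1 genes had 1 of 12 (8.33%, and 20.0% of the 5 with any summit), BEL1. XTH genes of wall loosening had 1 of 33 (3.03%, and 7.69% of the 13 with any summit), XTH24, whose peak continued outward from 5.74 (4.81 to 6.80) at 809 bp to 9.05 (7.76 to 10.5) at 1650 bp and 7.46 at 2261 bp. Expansins had 1 of 29 (3.45%, and 20.0% of the 5 with any summit), EXPA1, with 3.66 and 4.48.

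Large transcription factor families had shares from 4.04 to 8.45% of all their genes and from 14.3 to 25% of their genes with any summit. WRKY genes, of defence and stress, had 6 of 71 (8.45%, and 24% of the 25 with any summit), with WRKY15 (8.75 and 5.43, the first inside the neighbouring gene AT2G23321), WRKY11 (6.63 outside and 3.24 inside the gene) and WRKY39 (4.25 and 2.82) at the front. MYB-numbered genes had 9 of 125 (7.20%), or 25% of the 36 with any summit. MYB6 had a peak at each end, with folds of 2.73 and 2.15 at the lower-coordinate end and an even pair of 7.22 (6.06 to 8.53) and 7.11 (5.97 to 8.42) at the other. MYB30 had 5.82 and 4.47, and MYB86 had 4.62 and 4.995. NAC-numbered genes had 4 of 99 (4.04%), or 14.3% of the 28 with any summit. NAC004 was 1 of the 2 genes with 5 such summits, with folds of 3.94, 3.99 and 2.72 at one end and of 3.06 and 3.40 at the other. NAC6, also named ANAC092, had 2.47, 3.04 and 3.30, and NAC096 had a highest fold of 3.45.

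The remaining lists were CBL and CIPK genes, embryo-essential genes, ribosomal protein genes, and actins and tubulins. CBL and CIPK genes had 2 of 36 (5.56%, and 12.5% of the 16 with any summit), CBL1 with a highest fold of 3.37 and CIPK18 with 2.25 at summits 23 bp apart. Embryo-essential EMB genes had 2 of 112 (1.79%, and 25% of the 8 with any summit), EMB1290 with a highest fold of 2.39 and EMB1444 with 5.15. Ribosomal protein genes had 0 of 40, and actins and tubulins 0 of 23, where 4 and 3 genes had a summit of some kind.

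**Figure D5:**
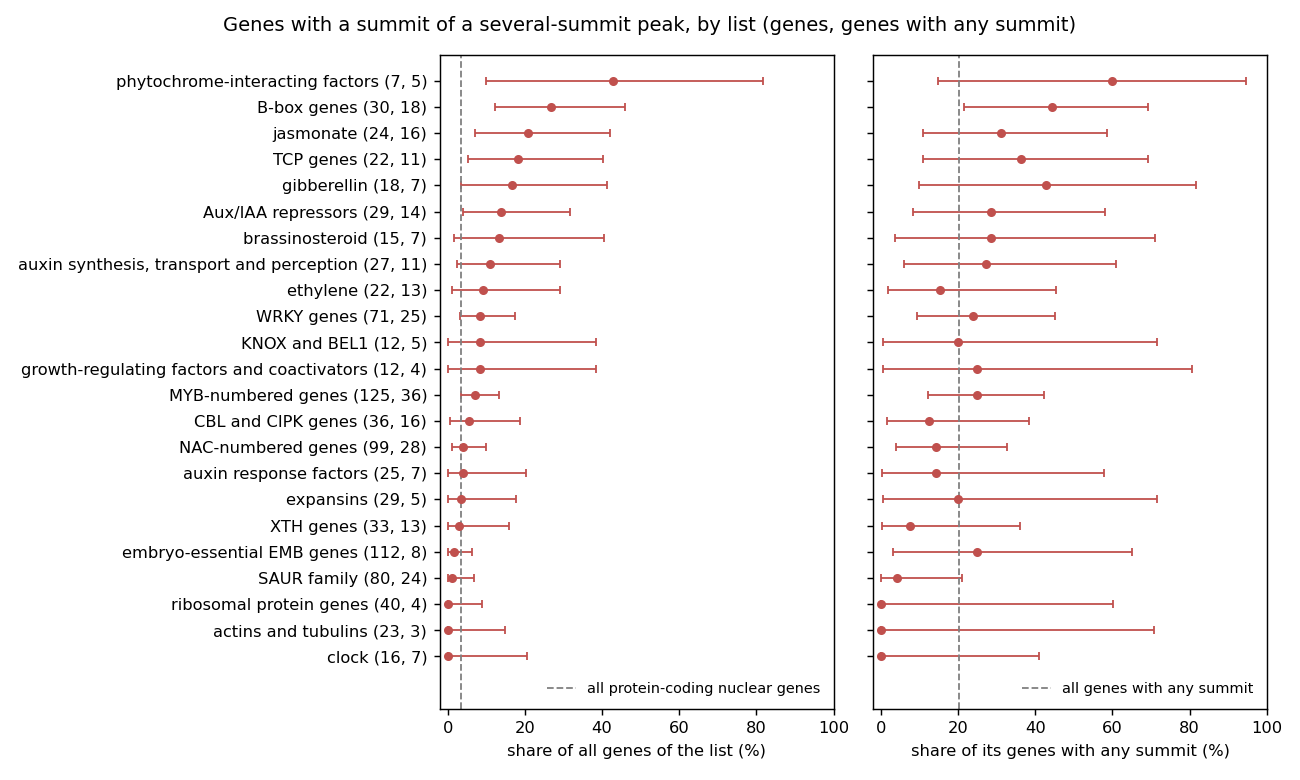
Genes with a summit of a several-summit peak in their windows for 23 gene lists (y axis, with the number of genes and of genes with any summit in brackets), as a share of all genes of the list (left, x axis, %) and of its genes with any summit (right, x axis, %). Bars are exact 95% binomial intervals, which cover counting only, and the dashed lines are the shares over all protein-coding nuclear genes, 3.52% of all and 20.2% of those with any summit. The phytochrome-interacting factors, at 42.9 and 60%, and the B-box genes, at 26.7 and 44.4%, are the uppermost rows, and ethylene, KNOX and BEL1, CBL and CIPK, NAC-numbered and auxin response factor genes lie right of the line on the left side and left of it on the right side.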

How the data were processed

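The files hold 1 peak list of mTCP4 against Col. Per the submitters' processing notes, Bowtie 0.12.9 and MACS2 2.1.1 were used on build TAIR10. Neither the calling threshold nor any use of the inputs is stated there. Per the file headers, each row gives a summit, its pileup (a signal), its fold (a linear ratio) and its p-value and q-value as −log10, all the authors' own. Of the 7470 intervals 7469 reach 5000 bp to each side of the summit, so they give no peak width.

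The control level at a summit was solved from its deposited fold and pileup, allowing for a pseudocount of 1 in each. Pileups were whole multiples of 0.737 within 0.02 at 100% of summits, taken as fragments. Exact 95% Poisson intervals of the fragments, with the control held fixed, cover counting error only. At the median summit of several-summit peaks they reached 20.5% below and 24.2% above the fold.

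Genes came from a RefSeq table of assembly TAIR10.1 without strand. Shifts of at most 1000 bp, tried every 100 bp, checked that coordinates match: the share inside genes was lowest at no shift on 4 of 5 chromosomes and at 100 bp on the other. The nearest gene is the one with the smallest distance to its body. The members of the 23 gene lists were matched by symbol, synonym or locus tag, and PIF2, which had no match, was left out. This matching was corrected after a first look at the counts. The shares within classes of fold and among genes with any summit were added after the data were seen.

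The members, lists and tests were chosen with earlier results of these data known. Genes are named by a rule. It takes PIF3, TCP4, SAUR16 and SAUR50, and the genes nearest to the 8 peaks with the most summits, the 12 with the highest folds, the 4 longest and the 4 with the largest fold ratio. It also takes up to 3 genes per list. Other genes nearest to summits of these peaks are named as neighbours. IAA2, TCP9, JAZ9, BBX9 and BBX30 were named after their values were seen. No test was made, since each group has 1 library. The planned TCP motif search was not run because no promoter sequence was used. Python 3.11.15, pandas 2.3.3 and SciPy 1.17.1 were used, and the scripts were tested on simulated data.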

Additional observations from a re-analysis of the deposited data

How the results depend on the processing

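No paired analysis was possible because each group has 1 library and the list gives 1 value per summit. The alternatives were chosen with earlier results known, and those for lone summits were added after the data were seen. A value was taken as unchanged within its exact 95% interval, or within 1.5 times for a count. Of 48 values 14 were unchanged and 34 moved. With −log10 q of at least 5, 1985 summits in several-summit peaks were left, and of the values there only the median fold moved, to 3.51, above the 3.30 reported. With summits above the list's median fold, 805 member summits and 316 genes were left, the median fold ratio in a peak was 1.14 and 54.7% lay at gene ends. With only summits at the lowest control level, 298 summits and 84 genes were left, with a spacing of 210.5 bp, a fold of 3.72, a ratio of 1.10, 39.6% at gene ends and 8.33% of peaks at different genes. With 3 or more summits per peak, 416 summits and 128 genes were left, with a spacing of 283 bp, a fold of 3.62, a ratio of 1.59, 57.5% at gene ends and 32.8% of peaks at different genes. With exactly 2, the spacing was 206.5 bp, the ratio 1.16 and the share at different genes 12.1%. The highest summit per peak had a fold of 3.71. Joining summits under 200 bp apart left 1392 summits at a spacing of 291.5 bp. Pileup gave a ratio of 1.12. At gene ends, windows of 500 and 2000 bp held 40.0 and 81.4% of member summits and 45.6 and 82.7% of lone summits, and the wider gave 1470 genes. With all annotated genes 65.6% of member summits and 69.2% of lone summits lay at gene ends, and 17.5% of peaks had different nearest genes. The share of member summits was below that of lone summits in these 3 settings. The smaller counts follow from fewer summits by construction, and the ratio rises with the number of summits per peak by construction too. The causes of the other shifts were not tested. The fold median of members in pileup units has another unit and was not compared, and the promoter motif alternatives were not run. At the depth of most summits the intervals are wide, and nearby summits can share fragments, so overlap of intervals does not show equal binding.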
